A study of Mus musculus with 6 samples.

Results

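Hepatocyte growth factor, its receptor MET and the enzymes and inhibitors that control its activation were followed across 6 mouse liver libraries. The set held 7 genes, chosen by symbol: the ligand Hgf, the receptor Met, the proteases Hgfac, Hpn and St14, and the protease inhibitors Spint1 and Spint2. All 7 were among the 21899 genes of the deposited table, and all 7 passed the filter on low counts that left 12599 genes for testing. The livers came from wild-type mice of the C57BL6J strain. One group had received a diet lacking methionine and choline (MCD, 3 libraries) for 6 weeks, a diet used in mice to bring about fatty and inflamed liver, and the other a diet with enough of both nutrients (MCS, 3 libraries). The labels give no treatment other than the diet, and state neither age nor sex. Nor do they tie each library to an animal of its own: the p-values therefore reflect the spread among these 3 libraries per diet, and that spread could be technical.

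HGF is made by non-parenchymal cells of the liver, mainly stellate and endothelial cells, and is secreted as an inactive single chain that is held in the matrix. Cleavage by serine proteases turns it into the form that switches on MET, a receptor tyrosine kinase of hepatocytes and other epithelial cells that drives their survival, growth and movement and is needed for liver regeneration. The activating proteases include HGFAC, which the liver secretes into plasma as a zymogen, and the membrane-bound hepsin (Hpn) and matriptase (St14). All of them are held in check by the membrane-anchored Kunitz-type inhibitors HAI-1 (Spint1) and HAI-2 (Spint2). The data are RNA levels, and the cleavage of HGF was not measured.

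On the MCD diet St14 and Spint1 rose, Hgfac and Met fell, and Hgf, Hpn and Spint2 did not pass the test. Thus 4 of the 7 genes passed (2 up and 2 down), against 24.7% of all tested genes (14.8% up and 9.97% down). Each change is given as the log2 of MCD over MCS, with its SE, from the quasi-likelihood test of edgeR on TMM-scaled counts; p is adjusted by Benjamini-Hochberg over all tested genes, with a threshold of 0.05. Levels are counts per 1000000 of the TMM-scaled library (CPM). MCD and MCS libraries did not overlap in CPM for 5 of the 7 genes (2 higher and 3 lower on the MCD diet), against 45.3% of all tested genes (23.9% higher and 21.3% lower). Because TMM sets the bulk of the genes to no change, the changes are relative to that bulk: over all genes the median change was 0.01 (log2) with TMM and 0.57 with library size alone. The split of calls moved with it: 1861 up and 1256 down with TMM, but 5095 up and 348 down with library size alone.

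**Figure D1:**
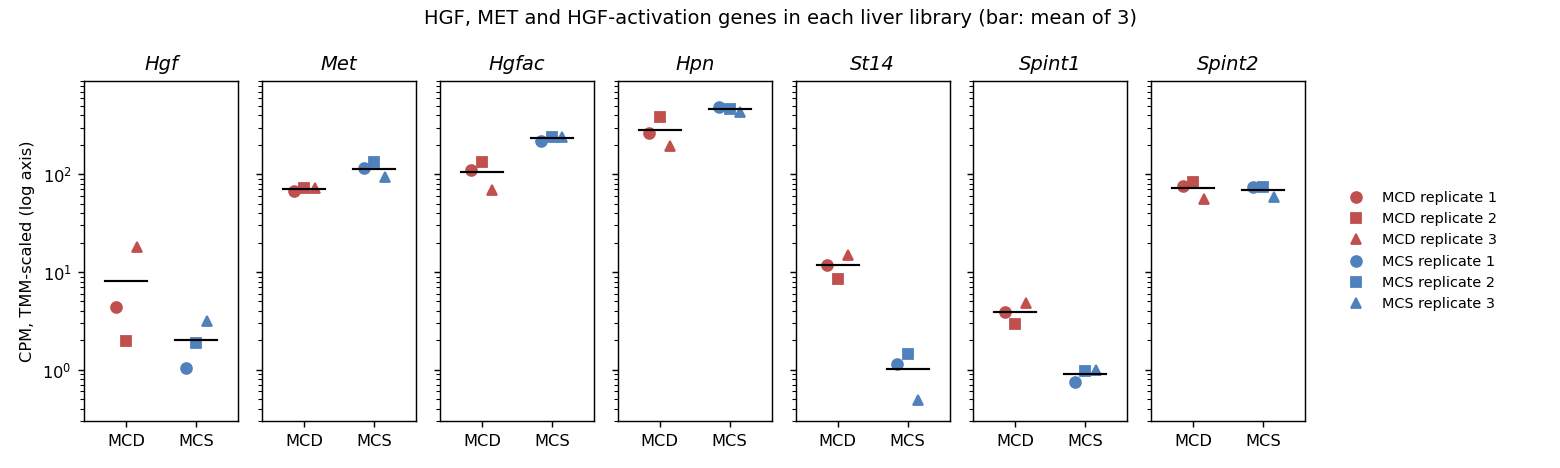
Level of each gene in every library, in CPM on a log axis, with the MCD libraries left of the MCS libraries in each panel and a bar at the mean of 3. St14 and Spint1 lie higher, and Met, Hgfac and Hpn lower, in all MCD libraries, whereas Hgf is spread from 1.99 to 17.9 CPM among the MCD libraries.

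Total counts were 18443357 to 21285045 in the MCD libraries and 16615469 to 21322771 in the MCS libraries. TMM factors were 1.04 to 1.41 in MCD libraries and 0.797 to 0.873 in MCS libraries, so the diets differed in scaling. A second principal component with 12.5% of the variance set replicate 3 of each diet apart (−24.5 for MCD, −47.6 for MCS, against 10.3 to 32.03 for the others). No pair of libraries agreed within sampling noise.

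Per transcript length, in transcripts per 1000000 (TPM), the means ran from 3.86 to 326 in MCD livers and from 0.425 to 352 in MCS livers. In MCD livers Hpn came first (326 ± 53.6 TPM, SD, n = 3), followed by Spint2 (126 ± 7.30), Hgfac (121 ± 18.4), Met (26.4 ± 5.77), St14 (8.18 ± 3.57), Hgf (6.67 ± 7.89) and Spint1 (3.86 ± 1.63). In MCS livers the order was Hpn (352 ± 14.1 TPM, SD, n = 3), Hgfac (166 ± 17.9), Spint2 (77.0 ± 6.75), Met (26.5 ± 3.69), Hgf (0.962 ± 0.575), Spint1 (0.579 ± 0.0582) and St14 (0.425 ± 0.185). Spint2 and Hgfac overlapped in the MCD libraries and did not overlap in the MCS libraries. St14, Hgf and Spint1 each overlapped with the next of these 3 in the order on either diet, and none of them overlapped with Met.

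The stretches just upstream of the annotated starts of Spint1, which rose, of Hgfac, which fell, and of Hgf and Hpn, which did not pass, are printed below from RefSeq (build GRCm38.p6; the deposited counts rest on GRCm39). They are shown so that the upstream sequence of genes that moved in opposite directions can be read side by side. Each holds 250 bases, 5′ to 3′ on the strand of the gene, and ends at the base before the start. Capitals mark matches on either strand to 5 motifs: the GC box (GGGCGG), the TATA box (TATAAA), an AP-1 site (TGANTCA), a STAT site (TTCNNNGAA) and a C/EBP site (TTGCNNAA). No 2 matches overlapped.
Hgf, chr5:16553245-16553494, plus strand: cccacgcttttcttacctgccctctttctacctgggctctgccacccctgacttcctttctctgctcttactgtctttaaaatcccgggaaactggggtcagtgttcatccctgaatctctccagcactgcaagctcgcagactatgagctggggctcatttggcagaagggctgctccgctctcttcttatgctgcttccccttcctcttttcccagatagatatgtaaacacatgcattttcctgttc
Hgfac, chr5:35041259-35041508, plus strand: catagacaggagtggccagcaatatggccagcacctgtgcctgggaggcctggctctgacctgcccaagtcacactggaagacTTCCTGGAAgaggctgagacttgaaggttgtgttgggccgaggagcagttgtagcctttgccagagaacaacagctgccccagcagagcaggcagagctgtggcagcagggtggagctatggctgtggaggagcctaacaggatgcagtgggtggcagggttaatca
Hpn, chr7:31115327-31115576, minus strand: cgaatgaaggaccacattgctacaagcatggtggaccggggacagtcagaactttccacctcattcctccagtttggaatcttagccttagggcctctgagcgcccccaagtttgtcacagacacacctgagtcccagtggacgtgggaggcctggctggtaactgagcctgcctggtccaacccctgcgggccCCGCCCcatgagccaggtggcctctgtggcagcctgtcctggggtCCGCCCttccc
Spint1, chr2:119237110-119237359, plus strand: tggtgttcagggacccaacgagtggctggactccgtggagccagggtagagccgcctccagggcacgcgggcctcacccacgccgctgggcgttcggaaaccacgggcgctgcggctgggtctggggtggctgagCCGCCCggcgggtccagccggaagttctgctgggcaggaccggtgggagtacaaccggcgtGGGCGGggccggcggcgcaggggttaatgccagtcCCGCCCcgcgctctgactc
The Spint1 stretch held 3 GC boxes and the Hpn stretch 2, a motif found in 32.7% of 32851 upstream stretches of the same length. Hgfac held 1 STAT match (7.02% of all stretches), and Hgf held none of the motifs. The TATA, AP-1 and C/EBP motifs, found in 12.4%, 6.75% and 9.56% of all stretches, had no match in these 4. GC content was 72.8% for Spint1, 61.6% for Hpn, 58.4% for Hgfac and 50.8% for Hgf, against a median of 52.4%. A match describes the letters and not a bound site. Met, Spint2 and St14 are not shown.

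The ligand Hgf (ENSMUSG00000028864) was low in all libraries and uneven on the MCD diet. It had 98, 44 and 515 counts in MCD replicates 1 to 3, or 4.41, 1.99 and 17.9 CPM. In MCS replicates 1 to 3 it had 18, 25 and 57 counts, or 1.04, 1.89 and 3.14 CPM. MCD replicate 3 stood 9.01-fold above MCD replicate 2, which lay within the range of the MCS libraries, so the diets overlapped. The log2 fold change was 2.0 ± 0.83 (adjusted p = 0.121), with a 95% interval of 0.04 to 3.96. Without MCD replicate 3 it was 0.66 (adjusted p = 0.408), and without MCD replicate 2 it was 2.42 (adjusted p = 0.0374), so the size of the difference rests on which MCD libraries are kept. It passed with DESeq2, with library size alone and with a replicate block (log2 fold change 1.66 to 2.67, adjusted p = 0.0206 to 0.0474). In RNA from whole liver, fewer cells of a type and less RNA per cell cannot be told apart.

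The receptor Met (ENSMUSG00000009376) fell to 67.5, 72.8 and 72.4 CPM in MCD replicates 1 to 3, against 117, 133 and 93.8 CPM in MCS replicates 1 to 3. Every MCD library lay below every MCS library, and the MCD libraries differed among themselves by 1.08-fold at most. The log2 fold change was −0.69 ± 0.16 (adjusted p = 0.0161), with a 95% interval of −1.06 to −0.33. This fall is relative to the bulk of the genes: with library size alone it was −0.13 at an adjusted p of 0.515, and in log2(TPM + 1) it was −0.02 at an adjusted p of 0.932, where the medians of all genes were 0.57 and 0.53. The distance of Met from the median of all genes was −0.71 with TMM, −0.70 with library size alone and −0.55 on the log2(TPM + 1) scale. Met did not pass without MCD replicate 1, MCS replicate 1 or MCS replicate 2 (−0.66, −0.69 and −0.58 in log2, at adjusted p = 0.0773, 0.0661 and 0.0751).

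Of the activating proteases, Hgfac and Hpn, both expressed mainly by hepatocytes, lay lower on the MCD diet. Hgfac (ENSMUSG00000029102) fell to 112, 134 and 68.4 CPM in MCD replicates 1 to 3, against 217, 239 and 243 CPM in MCS replicates 1 to 3. MCD replicate 3 was the lowest, and no MCD library reached the MCS range. The log2 fold change was −1.16 ± 0.24 (adjusted p = 0.0107), and Hgfac passed in all 16 alternative fits, with log2 fold changes of −1.40 to −0.46 (adjusted p = 4.59e-05 to 0.0453). The smallest of these falls were those on the TPM scales.

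Hpn (ENSMUSG00000001249), whose protein hepsin sits on the hepatocyte surface, had 264, 384 and 194 CPM in MCD replicates 1 to 3, against 489, 466 and 437 CPM in MCS replicates 1 to 3. The diets did not overlap, but the MCD libraries differed 1.98-fold among themselves, and the log2 fold change of −0.73 ± 0.25 did not pass (adjusted p = 0.0670, 95% interval −1.30 to −0.15). Hpn passed without MCD replicate 2, the highest of the MCD libraries (log2 fold change −1.05, adjusted p = 0.00609), with DESeq2 and with a replicate block (−0.74 and −0.78, adjusted p = 0.0142 and 0.0439). As for Met, the value was nearer 0 with library size alone (−0.22, at an adjusted p of 0.295) and in log2(TPM + 1) (−0.12, at an adjusted p of 0.524), and in TPM the diets overlapped, with 279 to 384 TPM in MCD libraries and 339 to 367 TPM in MCS libraries. Whether Hgfac and Hpn differ in their change was not tested.

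St14 (ENSMUSG00000031995) showed the largest change of the 7 genes, in the direction opposite to the other proteases. It encodes matriptase, a membrane serine protease of epithelial cells that also cleaves other zymogens. It had 260, 187 and 431 counts in MCD replicates 1 to 3, or 11.7, 8.46 and 15.01 CPM. In MCS replicates 1 to 3 there were 20, 19 and 9 counts, or 1.15, 1.44 and 0.496 CPM. The lowest MCD library was well above the highest MCS library, whose 95% counting interval (exact Poisson, counting error only) ran from 0.864 to 2.24 CPM. St14 rose 11.6-fold, or by 3.53 ± 0.40 on the log2 scale (at adjusted p = 0.000957), with a 95% interval of 2.64 to 4.43. Of all tested genes, 6.28% had a log2 fold change of at least 2. The rise of St14 passed in all 16 alternative fits (log2 fold change 2.62 to 4.13).

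The inhibitors behaved differently from each other. Spint1 (ENSMUSG00000027315), which encodes HAI-1, an inhibitor that binds matriptase, hepsin and HGFAC, had 87, 65 and 139 counts in MCD replicates 1 to 3, against 13, 13 and 18 in MCS replicates 1 to 3. These counts are 3.91, 2.94 and 4.84 CPM in MCD libraries, against 0.748, 0.982 and 0.993 CPM in MCS libraries, with no overlap. Spint1 rose 4.29-fold, or by 2.1 ± 0.36 on the log2 scale (at adjusted p = 0.00538), and passed in all 16 alternative fits (1.56 to 2.68). Spint2 (ENSMUSG00000074227), which encodes the related HAI-2, had 75.2, 83.9 and 56.4 CPM in MCD replicates 1 to 3, against 74.2, 74.9 and 59.0 CPM in MCS replicates 1 to 3. The diets overlapped, and the log2 fold change was 0.05 ± 0.18 (adjusted p = 0.859), with a 95% interval of −0.36 to 0.46. In TPM the diets did not overlap, with 134, 125 and 119 TPM in MCD replicates 1 to 3, against 81.6, 80.1 and 69.2 TPM in MCS replicates 1 to 3. With library size alone, and in log2(TPM + 1), Spint2 passed upward (0.58 and 0.70, at adjusted p = 0.0105 and 0.00497), at 0.01 and 0.17 above the median of all genes.

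**Figure D2:**
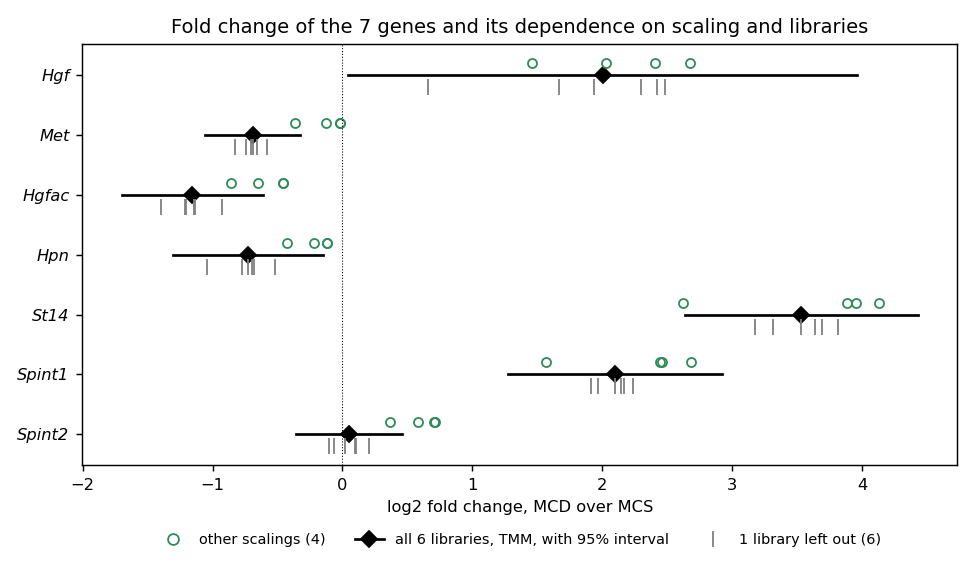
Log2 fold change of MCD over MCS for the 7 genes: diamonds with 95% intervals are the fit of all 6 libraries with TMM, circles 4 other scalings and ticks the 6 fits with 1 library left out. St14, Spint1 and Hgfac keep their direction and pass throughout, Met lies nearer 0 under the 4 scalings drawn as circles, and Hgf is at 0.66 when MCD replicate 3 is left out.

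Ratios of TPM between 2 genes in the same library do not depend on the scaling between libraries, and they are given as a description with no test, since 3 libraries against 3 cannot give an exact permutation p under 0.10. Relative to the low inhibitor Spint1, Hgfac stood at 33.3, 60.2 and 18.4 in MCD replicates 1 to 3, against 285, 286 and 289 in MCS replicates 1 to 3. Hpn to Spint1 was 85.1, 167 and 50.2 in MCD libraries, against 696, 596 and 543 in MCS libraries. The ratios of these hepatocyte proteases to Spint1 were lower in every MCD library.

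Against the abundant inhibitor Spint2 the shifts of the hepatocyte proteases were smaller. Hgfac to Spint2 was 0.925, 1.11 and 0.856 in MCD replicates 1 to 3, against 1.84, 2.03 and 2.68 in MCS replicates 1 to 3. Hpn to Spint2 was 2.36, 3.08 and 2.34 in MCD libraries, against 4.50, 4.24 and 5.04 in MCS libraries. Neither ratio overlapped between the diets.

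St14 and Spint1 were both rare transcripts on the MCS diet, and their ratio was higher in every MCD library, at 2.105, 2.095 and 2.147 in MCD replicates 1 to 3, against 0.903, 1.02 and 0.343 in MCS replicates 1 to 3. The 3 MCD ratios differ by less than counting error, since the 65 Spint1 counts of MCD replicate 2 alone allow 2.27 to 3.75 CPM (exact Poisson, 95%). The lowest MCS ratio rests on 9 St14 counts and 18 Spint1 counts. St14 to Spint2 was 0.0584, 0.0387 and 0.1001 in MCD libraries, against 0.00583, 0.00724 and 0.00318 in MCS libraries. Spint1 to Spint2 was 0.0277, 0.0185 and 0.0466 in MCD libraries, against 0.00646, 0.00711 and 0.00927 in MCS libraries, so Spint2 remained the more abundant inhibitor transcript in each library. Hgf to Met, ligand over receptor, was 0.121, 0.0511 and 0.491 in MCD replicates 1 to 3, against 0.0190, 0.0257 and 0.0701 in MCS replicates 1 to 3. This ratio overlapped between the diets, with MCD replicate 2 below MCS replicate 3.

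**Figure D3:**
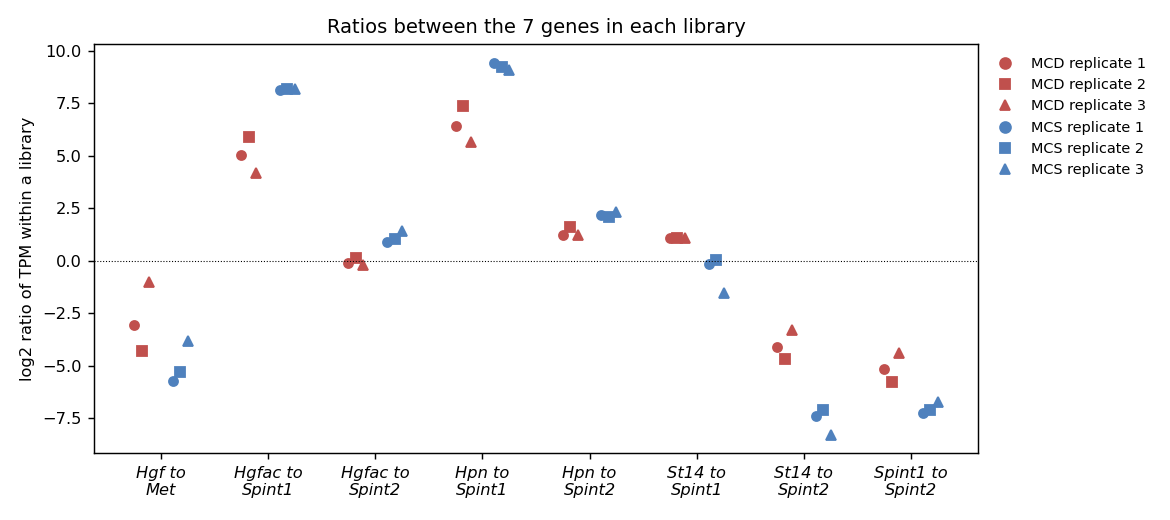
Log2 ratio of TPM between 2 genes in each library, with MCD libraries left of MCS libraries at each ratio. The ratios of Hgfac and Hpn to either inhibitor are lower, and those of St14 to either inhibitor higher, in all MCD libraries, and St14 to Spint1 lies between 2.095 and 2.147 before taking log2 in the MCD libraries.

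Markers of the cell types that make these proteins also varied between libraries; their counts under other settings were added after the data were seen. Of 12 stellate cell markers 3 rose, 0 fell and 9 did not pass, against 14.8% up and 9.97% down among all tested genes. Their summed level was 554, 286 and 967 CPM in MCD replicates 1 to 3, against 239, 228 and 502 CPM in MCS replicates 1 to 3. With DESeq2 7 of these markers rose (16.9% of all genes), with library size alone 8 (40.4%) and without MCD replicate 2 also 7 (18.2%). But 0 passed without MCD replicate 1, MCS replicate 1 or MCS replicate 2, where 8.12%, 7.27% and 7.22% of all genes rose. In these fits 5, 5 and 3 of the markers rose at an unadjusted p under 0.05. Without MCD replicate 3, 1 marker rose (11.7% of all genes). Of 12 sinusoidal endothelial markers 0 passed in either direction by edgeR or DESeq2, nor did any at an unadjusted p under 0.05, and their sum was 134, 91.9 and 531 CPM in MCD libraries, against 156, 211 and 607 CPM in MCS libraries. With both libraries numbered 3 left out, 5 of these 12 fell, against 12.2% of all genes. No marker of these lists was at 0 throughout a diet. The most abundant stellate markers by the rule used, Dcn (decorin) and Ecm1, both missed the threshold (log2 fold changes 1.79 ± 0.56 and −0.75 ± 0.33, at adjusted p = 0.0576 and 0.139). Dcn passed upward in 8 of the 16 alternative fits, and Ecm1 stood at 0.17 in log2(TPM + 1). All 12 stellate and all 12 endothelial markers were highest in MCD replicate 3 among the MCD libraries, as Hgf was, and all 12 stellate and 11 of the endothelial markers were lowest in MCD replicate 2, again as Hgf was. Most markers of other non-hepatocyte lists did the same. In MCD replicate 3, 11 of 13 epithelial, 9 of 10 macrophage and all 8 lymphocyte and granulocyte markers were highest. In MCD replicate 2, 10, 9 and 4 of these were lowest. How many of all tested genes had this order was not counted. Per 1000 CPM of summed stellate markers Hgf stood at 7.96, 6.96 and 18.5 CPM in MCD replicates 1 to 3, against 4.33, 8.30 and 6.26 in MCS replicates 1 to 3, which overlapped. The make-up of this sum differed between the diets. Dcn had 250, 115 and 503 CPM in MCD libraries, against 63.1, 57.8 and 130 CPM in MCS libraries. Ecm1 had 67.2, 50.9 and 72.9 CPM in MCD libraries, against 74.1, 75.3 and 171 CPM in MCS libraries. The overlap therefore depends on which markers are summed. Per 1000 CPM of endothelial markers Hgf stood at 33.0, 21.7 and 33.8 in MCD libraries, against 6.65, 8.96 and 5.18 in MCS libraries, with no overlap. Per 1000 CPM of the macrophage markers described below Hgf stood at 3.91, 2.27 and 9.30 in MCD libraries, against 4.61, 7.56 and 10.9 in MCS libraries, which overlapped. The part of these cells in the difference of Hgf was not tested.

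For St14 and Spint1 the markers set beside them were those of cholangiocytes and other epithelial cells. Of 13 such genes 8 rose, 0 fell, 3 did not pass and 2 were too low to test, against 14.8% up and 9.97% down among all tested genes. The median log2 fold change was 1.83 over the markers tested, against 0.01 over all genes. With any 1 library left out 5 to 9 of the markers rose, with 5 in the fits lacking MCD replicate 1, MCS replicate 1 or MCS replicate 2. In those fits 8.12%, 7.27% and 7.22% of all genes rose. The markers' summed level was 160, 112 and 166 CPM in MCD replicates 1 to 3, against 70.8, 85.4 and 59.6 CPM in MCS replicates 1 to 3. The most abundant of the list, the adhesion molecule Cdh1, rose by 0.91 ± 0.24 (adjusted p = 0.0255), and lost its call when MCD replicate 1 or 3, or MCS replicate 1 or 3, was left out (then adjusted p = 0.0574 to 0.0923). Hepatocytes also express Cdh1. Per 1000 CPM of summed epithelial markers St14 stood at 73.0, 75.4 and 90.5 CPM in MCD replicates 1 to 3, against 16.3, 16.8 and 8.33 in MCS replicates 1 to 3. Spint1 stood at 24.4, 26.2 and 29.2 CPM per 1000 in MCD libraries, against 10.6, 11.5 and 16.7 in MCS libraries. Neither overlapped between the diets.

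Of 10 macrophage markers 9 rose and 1, the Kupffer cell lectin Clec4f, fell, against 14.8% up and 9.97% down among all tested genes. Clec4f was named after its value was seen. With library size alone, without MCS replicate 2 and without both libraries numbered 3, 0 of these markers fell, against 2.76%, 3.05% and 12.2% of all genes. The markers' sum was 1128, 879 and 1928 CPM in MCD libraries, against 224, 250 and 288 CPM in MCS libraries. Spint1 per 1000 CPM of macrophage markers was 3.47, 3.35 and 2.51 in MCD libraries, against 3.33, 3.93 and 3.45 in MCS libraries, which overlapped. St14 per 1000 CPM of the same markers was 10.4, 9.63 and 7.79 in MCD libraries, against 5.13, 5.75 and 1.72 in MCS libraries, which did not. The make-up of this sum differed between the diets. Gpnmb had 491, 348 and 922 CPM in MCD libraries, against 3.68, 6.35 and 3.36 CPM in MCS libraries. Clec4f had 27.7, 58.8 and 53.3 CPM in MCD libraries, against 88.7, 111 and 122 CPM in MCS libraries. Ratios to the sum, and their overlap, therefore depend on which markers are summed. The part of epithelial cells or macrophages in the rise of St14 and Spint1 was not tested.

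Of 13 hepatocyte identity genes in the table, 4 fell, 0 rose and 9 did not pass, with a median of −0.79. Among all tested genes 14.8% rose and 9.97% fell. There were 10 hepatocyte genes that fell with DESeq2 (13.1% of all genes) and 2 with library size alone (2.76%). With MCD replicate 2 left out 9 fell (15.9% of all genes). With MCD replicate 1 or MCS replicate 2 left out 0 did (5 and 7 at an unadjusted p under 0.05), where 3.35% and 3.05% of all genes fell. With MCS replicate 1 left out 1 fell (3.33% of all genes), and with MCS replicate 3 left out 2 fell (6.95%). Their sum, most of it Alb, was 79307, 98930 and 59237 CPM in MCD libraries, against 90338, 89928 and 113519 CPM in MCS libraries. MCD replicate 2 was the highest MCD library for all 13, as it was for Hgfac, Hpn and Spint2. Met was also highest there in CPM, but its 72.8 and 72.4 CPM in MCD replicates 2 and 3 lay within counting error. In TPM Met was lowest in MCD replicate 2 (20.4, against 26.9 and 31.9 in MCD replicates 1 and 3). Per 1000 CPM of these genes Hgfac stood at 1.41, 1.35 and 1.15 CPM in MCD libraries, against 2.40, 2.66 and 2.14 in MCS libraries, with no overlap. Alb made up 72.6% to 73.2% of the sum in MCD libraries and 56.3% to 64.9% in MCS libraries. Over the other 12 genes, a sum added after the data were seen, Hgfac stood at 5.26, 4.93 and 4.27 CPM per 1000 in MCD libraries, against 5.87, 6.09 and 6.09 in MCS libraries. The MCS mean was then 1.25-fold the MCD mean, against 1.84-fold with Alb, so the size of the gap rests largely on Alb. With Alb in the sum, Hpn stood at 3.33, 3.88 and 3.28 in MCD libraries, against 5.42, 5.19 and 3.85 in MCS libraries, with overlap. Met likewise overlapped, at 0.852, 0.735 and 1.22 in MCD libraries, against 1.29, 1.48 and 0.826 in MCS libraries. Spint2 was higher with no overlap, at 0.948, 0.848 and 0.952 in MCD libraries, against 0.821, 0.833 and 0.519 in MCS libraries. Without Alb, Hpn and Met still overlapped, but the order of their means turned. The MCS mean was then 0.93-fold the MCD mean for Hpn and 0.86-fold for Met, against 1.38-fold and 1.28-fold with Alb. Spint2 was still higher without Alb, at 3.10 to 3.54 in MCD libraries, against 1.48 to 2.004 in MCS libraries. The share of hepatocytes in the livers was not measured.

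**Figure D4:**
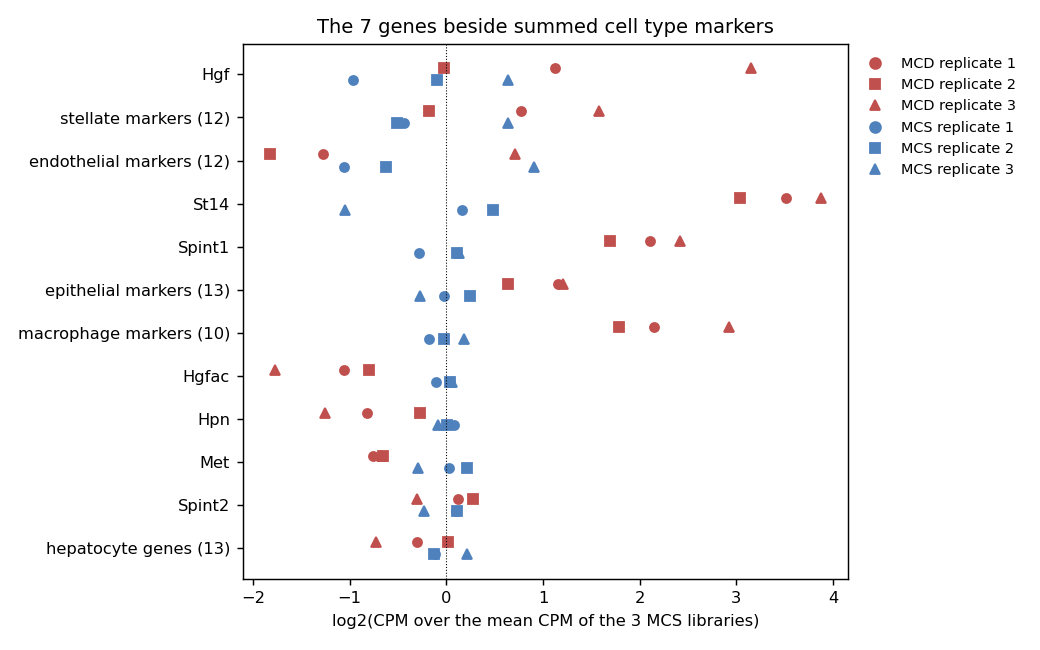
The 7 genes and the summed markers of 5 cell types in each library, as log2 of CPM over the mean of the 3 MCS libraries, with the MCD libraries in the upper line of each row. Hgf and the sums of stellate, endothelial, epithelial and macrophage markers are all highest in MCD replicate 3 among the MCD libraries. In every MCD library St14 lies further above its MCS mean than any of the marker sums shown.

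Beyond the 7 genes, the adaptors, kinases and small GTPases that carry the MET signal divided between both directions. Of 32 tested, 7 rose, 4 fell and 21 did not pass, against 14.8% up and 9.97% down among all tested genes, with a median log2 fold change of −0.01 (0.01 over all genes). Pak1, a kinase downstream of Rac and Cdc42, rose to between 9.32 and 14.6 CPM in MCD libraries, against 2.53 to 3.42 CPM in MCS libraries (2.1 ± 0.25, adjusted p = 0.00115). The tyrosine kinase Src and the MAP kinase Mapk3 (ERK1) rose by 1.74 ± 0.33 and 0.70 ± 0.14 (adjusted p = 0.00765 and 0.00865). Phospholipase Plcg1 and the kinase Akt2 fell with TMM, at −0.71 ± 0.15 and −0.61 ± 0.15 (adjusted p = 0.0132 and 0.0222), but both stood at 0.05 in log2(TPM + 1), and neither passed without MCD replicate 1, MCS replicate 1 or MCS replicate 2 (at adjusted p = 0.0577 to 0.0963). Gab1, the docking protein of MET, had −0.29 ± 0.13 (adjusted p = 0.118), a gene named after its value was seen. With library size alone 18 of the 32 rose and 0 fell (none at an unadjusted p under 0.05), against 40.4% up and 2.76% down among all genes. The count of 11 calls dropped to 3, 3 and 2 without MCD replicate 1, MCS replicate 1 and MCS replicate 2, where 11.5%, 10.6% and 10.3% of all genes were called, and Mapk3 lost its call (0.61, adjusted p = 0.0551) in the fit lacking MCS replicate 2.

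Among co-receptors, shedding enzymes and negative regulators of MET, 6 of 22 tested genes rose, 4 fell and 12 did not pass, with a median of 0.02, against 14.8% up and 9.97% down among all tested genes. With library size alone 10 rose and 1 fell (40.4% and 2.76% of all genes), and with both libraries numbered 3 left out 3 rose and 7 fell (14.6% and 12.2% of all genes). Cd44, whose variant form serves MET as a co-receptor, rose to between 36.7 and 74.0 CPM in MCD libraries, against 9.07 to 13.5 CPM in MCS libraries (2.32 ± 0.27, adjusted p = 0.00126). The sheddase Adam10, which can release the outer part of MET, rose by 1.28 ± 0.26 (adjusted p = 0.0109), and integrin Itgb4 by 1.55 ± 0.37 (adjusted p = 0.0180). Spry4, a feedback inhibitor of receptor tyrosine kinases, fell to between 2.76 and 4.63 CPM in MCD libraries, against 10.8 to 19.4 CPM in MCS libraries (−1.82 ± 0.30, adjusted p = 0.00443), but did not pass in log2(TPM + 1), at −0.81 with an adjusted p of 0.0613. The heparan sulphate proteoglycan Sdc1 fell by 0.88 on the log2 scale (adjusted p = 0.0229), and did not pass with library size alone (−0.35, at adjusted p = 0.0952). The 10 calls dropped to 4, 3 and 3 without MCD replicate 1, MCS replicate 1 and MCS replicate 2, where 11.5%, 10.6% and 10.3% of all genes were called. In these fits Sdc1 lost its call (at adjusted p = 0.0806, 0.09999 and 0.0910). Itgb4 lost its call when any 1 of the MCS libraries was left out (at adjusted p = 0.0530 to 0.0622).

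Other proteases that act on HGF or HGFAC, and their inhibitors, divided by direction: 5 of 15 tested genes rose, 4 fell and 6 did not pass, with a median of −0.69, against 14.8% up and 9.97% down among all tested genes. With DESeq2 5 rose and 9 fell, against 16.9% and 13.1% of all genes. The urokinase Plau, which can cleave HGF, rose to 12.2, 9.003 and 19.8 CPM in MCD replicates 1 to 3, against 0.978, 0.604 and 2.59 CPM in MCS replicates 1 to 3 (3.26 ± 0.52, adjusted p = 0.00473). The tissue plasminogen activator Plat rose by 3.30 ± 0.63 (adjusted p = 0.00789). The plasma inhibitor Serping1 and coagulation factor F10, both secreted by hepatocytes, fell, at −1.31 ± 0.31 and −0.98 ± 0.25 (adjusted p = 0.0177 and 0.0224). The 6 genes that did not pass, from F2 to F11 by size, had log2 fold changes of −0.83 to −0.39. The 9 calls became 3, 5 and 3 without MCD replicate 1, MCS replicate 1 and MCS replicate 2, where 11.5%, 10.6% and 10.3% of all genes were called. In these fits neither Serping1 nor F10 passed (at adjusted p = 0.0760 to 0.0920). Without MCD replicate 2 there were 15 calls, against 34.1% of all genes. Plat did not pass by limma-voom (adjusted p = 0.0710), and F10 did not pass in log2(TPM + 1).

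**Figure D5:**
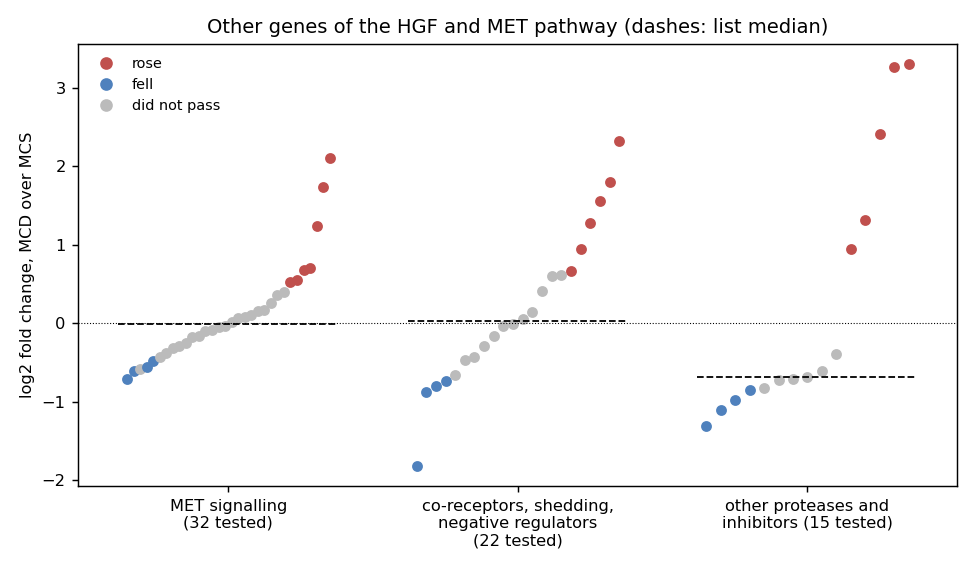
Log2 fold change of MCD over MCS for each tested gene of 3 lists of other pathway genes, sorted within a list, with dashes at the list's median. Plat and Plau are the 2 highest points of the list of other proteases and inhibitors.

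Mst1, which encodes macrophage-stimulating protein, the closest relative of HGF and likewise activated by HGFAC, hepsin and matriptase, had 96.8, 119 and 63.6 CPM in MCD replicates 1 to 3, against 166, 169 and 126 CPM in MCS replicates 1 to 3. Its log2 fold change of −0.72 ± 0.24 did not pass (adjusted p = 0.0537), and passed without MCD replicate 2 (−0.96, adjusted p = 0.00980). Its receptor Mst1r was too low to test, at 0.226 to 0.270 CPM in MCD libraries and 0.0756 to 0.276 CPM in MCS libraries.

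The genes nearest to each of the 7 in pattern over the 6 libraries were sought among 8988 tested genes averaging 5 CPM or more, by the root mean square difference of log2 CPM centred on each gene's mean. For Hgf these were Ednrb and Slfn5 (0.26 and 0.27, against a median of 1.35 for all candidates), and for Met Irf7 and Cadps2 (0.05 and 0.06, median 0.40). Hgfac was nearest to Rdh7 and Cyp2d10 (both 0.05, median 0.65), and Hpn to Smpd2 and Rnaseh2c (0.03 and 0.04, median 0.48). Cyp2d10 has close paralogues, so its counts are uncertain. St14 was nearest to Fam83a and Ly6d (0.33 and 0.35, median 1.91), Spint1 to Fgr and Fermt3 (0.09 and 0.10, median 1.12), and Spint2 to Glmp and Erg28 (0.05 for each, median 0.32). Like St14, Fam83a was low on the MCS diet, with 17.2, 9.09 and 19.1 CPM in MCD replicates 1 to 3, against 0.805, 1.81 and 0.607 CPM in MCS replicates 1 to 3.

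The authors' deposited table gives log2 ratios of mean TPM, and it puts St14 at 4.27, Hgf at 2.79 and Spint1 at 2.73, with false discovery rates of 6.19e-19, 0.0411 and 3.37e-06. In the authors' deposited table Spint2 stands at 0.71 and Hgfac at −0.45 (false discovery rates 0.0242 and 0.0407), and Hpn and Met at −0.11 and −0.01 (0.633 and 0.828). Against the edgeR fit of all 6 libraries with TMM, 3 genes were thus called differently. Hgf and Spint2 pass in the authors' deposited table and not in that fit, and Met passes in that fit and not in the authors' deposited table. Both Hgf and Spint2 did pass in some of the alternative fits. At a false discovery rate under 0.05 the authors' deposited table has 4486 genes up and 286 down.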

How the data were processed

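Liver polyA RNA was sequenced in 6 libraries, 3 per diet, which were grouped by the titles. Extraction used Trizol, per the labels' protocols, and no source used here says whether strand was kept. The submitters' processing notes name the build GRCm39 and, without saying what each did, RSEM, StringTie 1.3.1, HISAT2 2.1.0, Bowtie2 2.2.8 and fastp 0.18.0. The counts deposited by the authors were taken as rounded estimated counts: all are whole, yet in 64 cells the TPM is above 0 where the count is 0. TPM values were deposited beside them. In all 21899 rows the authors' deposited log2 fold change matched the log2 of the ratio of mean TPM (within 1e-06). The group means deposited by the authors, a signal in TPM, replace 0 by a small constant. Which test lies behind the authors' deposited p-value and FDR columns is likewise not given.

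Counts were tested with edgeR 4.0.16 in R 4.3.3 (filterByExpr with a minimum count of 10, TMM, robust quasi-likelihood fit, diet as the only term). SE is the log2 fold change over the square root of F. Alternatives used limma 3.58.1 and DESeq2 1.42.0. The fit was tested on simulated data, where a larger share of its calls was false than the threshold allows and many of the smaller changes were missed, so calls near the threshold are less certain than their adjusted p. Exact Poisson intervals (95%) cover counting error only; a floor of 3 counts was 0.104 to 0.227 CPM. Other pathway genes were named by rule: from each list the 3 called genes with the smallest p in the commoner direction and 2 in the other. From each marker list the 2 most abundant genes were taken, and some genes that these rules named are not reported here. The 7 genes and all lists were chosen with earlier results of these data known. Marker ratios were added after the data were seen. Motif matches used RefSeq promoters with chromosome 18 left out.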

Additional observations from a re-analysis of the deposited data

How the results depend on the processing

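With 1 library left out in turn, the log2 fold change ran from 0.66 to 2.48 for Hgf, −0.83 to −0.58 for Met, −1.40 to −0.92 for Hgfac, −1.05 to −0.52 for Hpn, 1.91 to 2.24 for Spint1, −0.10 to 0.20 for Spint2 (−0.06 without MCS replicate 3) and 3.17 to 3.82 for St14. Called genes ranged from 3 to 6 of the 7 genes, from 1347 to 4435 of all genes, from 2 to 10 MET signalling genes, from 3 to 11 co-receptor genes, from 3 to 15 other proteases and from 0 to 1 of Mst1 and Mst1r. With library size alone, log2(TPM + 1) and log2(TPM + 0.1), 5443, 5713 and 5992 genes and 18, 19 and 20 MET signalling genes were called, Met was at −0.13, −0.0199 and −0.0212 and Spint2 at 0.58, 0.70 and 0.71; Hgf was at 2.67 with library size alone. Met was at −0.36 with library sizes that leave out abundant and Mup genes. With DESeq2 Hgf was at 1.98 and Hpn at −0.74, 14 other proteases were called, and Mst1 passed, as it did without a count filter (1 gene in each). With a replicate block Hgf was at 1.66 and Hpn at −0.78, Mst1 passed (1 gene), and the other 5 of the 7 genes kept their side of the threshold. The labels give no meaning to the replicate numbers. Correlations of same-numbered deviations were 0.05, 0.13 and 0.23, for each MCD replicate the highest with any MCS replicate. MCS replicate 1, however, was closest to MCD replicate 2 (0.11). Whether same-numbered libraries share a batch was not tested. With both libraries numbered 3 left out, chosen after seeing the data, Hpn was at −0.56 and passed, as did Mst1 (1 gene).

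Some other named genes changed sign. With library size alone Stab2, Fcgr2b and Alb were at 0.14, 0.37 and 0.47, and with library sizes that leave out abundant and Mup genes Fcgr2b and Alb at 0.12 and 0.27. On the log2(TPM + 1) and log2(TPM + 0.1) scales Plcg1 was at 0.0513 and 0.0536, Akt2 at 0.0515 and 0.0521, Ecm1 at 0.17 and 0.18, Stab2 at 0.38 and 0.41, Fcgr2b at 0.36 and 0.37, Alb at 0.62 and 0.62, Irf7 at 0.0597 and 0.0604 and Cadps2 at 0.14 and 0.16. With 1 library left out in turn, Stab2 ranged from −1.06 to 0.35, Fcgr2b from −1.42 to 0.73, Alb from −0.25 to 0.14, Glmp from −0.0911 to 0.15 and Erg28 from −0.0244 to 0.25, and without both libraries numbered 3 Alb was at 0.32. The cause was not tested in any of these cases. Counts of 9 to 25 for Hgf, Spint1 and St14 in single MCS libraries limit the precision of their folds.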

Other observations

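The length implied by the deposited values, counts over TPM, differed between libraries for some of the genes. For Met it was 0.12 below and 0.13 above the gene's median on the log2 scale in MCD replicates 1 and 2, so that Met was higher in MCD replicate 1 than in MCD replicate 2 in TPM (26.9 and 20.4) and lower in CPM (67.5 and 72.8). The range over the 6 libraries was 0.24 for Met and 0.18 for Hgfac, against 0.0127 for Hpn, 0.0228 for Spint2 and a median of 0.04 over 5630 genes that, like these 4, had at least 200 counts in every library.

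Of 8 markers of lymphocytes and granulocytes, 2 rose (14.8% of all tested genes did), Cd3e and the granulocyte receptor Csf3r, 4 did not pass and 2 were too low to test. Their summed level was 11.6, 9.0 and 27.7 CPM in MCD libraries, against 5.46, 4.16 and 7.34 CPM in MCS libraries. Cd3e (2.21 ± 0.66, adjusted p = 0.0387) and Csf3r (2.0 ± 0.47, adjusted p = 0.0167) were both highest in MCD replicate 3, as Hgf was; Cd3e was named after its values were seen. The count of 2 dropped to 0 without MCS replicate 1 or MCS replicate 2 (2 and 3 at an unadjusted p under 0.05 by edgeR), where 7.27% and 7.22% of all genes rose. Csf3r lost its call when MCS replicate 1 or 2 was left out (then adjusted p = 0.0600 and 0.0633).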
